A study of Homo sapiens with 5 samples.

Results

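Protein-coding promoters at which no divergent start site was called are described here for HUDEP-2, a line of immortalised erythroid progenitors grown from human cord blood. The unit is a called transcription start site from precision run-on sequencing (PRO-seq), which captures RNA that engaged polymerases are making in isolated nuclei. Promoter calls are forward calls no more than 500 bp from the left end of a RefSeq protein-coding gene and reverse calls equally near the right end. Of 9522 promoter calls on chromosomes 1 to 22 and X, 3149 had no call of the other strand 0 to 2000 bp upstream, which is 33.1% (Wilson 95% interval 32.1 to 34.0%). They came from 28159 calls on these chromosomes and 28283 in all. The members were chosen by the measured positions of the calls, so the distances to opposite-strand calls are a description and not a finding. The other 6373 promoter calls, with a divergent call, serve as the comparison.

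Of the study's 5 libraries, 2 are unedited and 3 come from cells in which guide sg1617 had cut the enhancer of BCL11A. Each edited library is 1 single-cell clone, carrying a 1 bp insertion, a 13 bp deletion or a 15 bp deletion, so clone and edit cannot be told apart. The start sites were called on 1 alignment of HUDEP-2 cells, and which of the libraries entered it is not stated. The calls carry no value per library, so nothing here compares edited with unedited cells, and no test between conditions was possible. All 10 erythroid markers examined, among them HBB, SLC4A1 and KLF1, had a promoter call, against 0 of 7 lymphoid, 0 of 6 myeloid, 0 of 5 megakaryocyte and 0 of 5 neuronal markers. Of all 19974 protein-coding genes 42.2% had one.

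At most mammalian promoters RNA polymerase II starts in both directions, from separate core promoters at the edges of one nucleosome-depleted region. The gene is transcribed one way, and a short, unstable upstream antisense RNA is made the other way. Such RNA is readily seen in nascent RNA and rarely in steady-state RNA. Divergent initiation is best known from CpG island promoters, whereas promoters with a TATA box or little CpG are known for more directional initiation. In the call lists the score is 0 for every call, so the number of reads behind a call is unknown. A promoter without a divergent call may therefore lack an antisense start or have one below the caller's limit, and these cannot be told apart here.

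Sequences of 9 such promoters and of 2 erythroid promoters with a divergent call are given as chosen examples, not as a fair sample of the set. Each runs from 75 bases before to 5 after the call, read on the gene's strand from the RefSeq promoter table of GRCh38.p14. The last pair of capitals is the called base and the base after it. Other capitals mark TATAA starting 40 to 20 bases before the call, and the GATA core GATAA, the KLF site CACCC and the NF-Y site CCAAT, on either strand anywhere before it. The first 5 are red cell genes, the next 4 are genes of translation, heat shock and transcription, and the last 2, TFRC and GATA1, had a divergent call. AQP1, RPS27, EEF2 and HSPA1A carry TATAA in that stretch, as do only 3.41% of 1845 members with enough sequence. RHAG, ALAS2 and KEL carry GATAA there, on either strand, as do 1.46%. RHAG, ALAS2, KEL, AQP1, RPS27 and HSPA1A are not CpG-rich by the measure given below, whereas 85.4% of 2339 members are.
RHAG, chr6:49636835-49636915, reverse: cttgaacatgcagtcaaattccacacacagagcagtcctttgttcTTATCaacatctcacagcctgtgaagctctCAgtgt
ALAS2, chrX:55030973-55031053, reverse: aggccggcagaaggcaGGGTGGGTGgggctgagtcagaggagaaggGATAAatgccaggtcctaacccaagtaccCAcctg
KEL, chr7:142962355-142962435, reverse: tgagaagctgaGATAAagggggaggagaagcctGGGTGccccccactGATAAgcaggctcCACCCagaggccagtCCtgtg
AQP1, chr7:30911777-30911857, forward: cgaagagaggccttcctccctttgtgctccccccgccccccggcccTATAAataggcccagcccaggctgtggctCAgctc
GYPC, chr2:126656071-126656151, forward: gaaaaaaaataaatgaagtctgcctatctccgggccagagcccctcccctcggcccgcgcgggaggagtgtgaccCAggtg
RPS27, chr1:153990687-153990767, forward: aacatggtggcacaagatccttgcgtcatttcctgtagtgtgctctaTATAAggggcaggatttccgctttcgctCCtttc
EEF2, chr19:3985458-3985538, reverse: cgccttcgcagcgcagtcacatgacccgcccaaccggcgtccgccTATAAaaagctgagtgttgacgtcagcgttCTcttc
HSPA1A, chr6:31815468-31815548, forward: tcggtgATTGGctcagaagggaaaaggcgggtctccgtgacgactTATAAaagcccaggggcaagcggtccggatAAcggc
POLR2L, chr11:842525-842605, reverse: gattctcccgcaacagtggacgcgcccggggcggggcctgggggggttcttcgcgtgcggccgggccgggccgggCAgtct
TFRC, chr3:196082086-196082166, reverse: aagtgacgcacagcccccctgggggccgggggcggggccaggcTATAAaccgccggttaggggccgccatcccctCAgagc
GATA1, chrX:48786514-48786594, forward: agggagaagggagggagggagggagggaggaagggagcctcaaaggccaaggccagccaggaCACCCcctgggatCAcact

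Most promoter calls had the next opposite-strand call upstream either within 1000 bp or well past 2000 bp. Of the 9522 calls, 6309 had one within 1000 bp, only 64 at 1001 to 2000 bp and 44 at 2001 to 3000 bp. The members' distances began at 2004 bp and had a median of 73760 bp (quartiles 20945.5 and 234027 bp), and 42.3% of members had the next such call over 100000 bp away. The comparison calls had a median of 179 bp (quartiles 117 and 294 bp). Few calls thus lay near the limit of 2000 bp on either side. Per bp they were about as thin farther out, with 117 at 3001 to 5000 bp and 240 at 5001 to 10000 bp. The counts therefore do not single out 2000 bp as a limit.

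**Figure D1:**
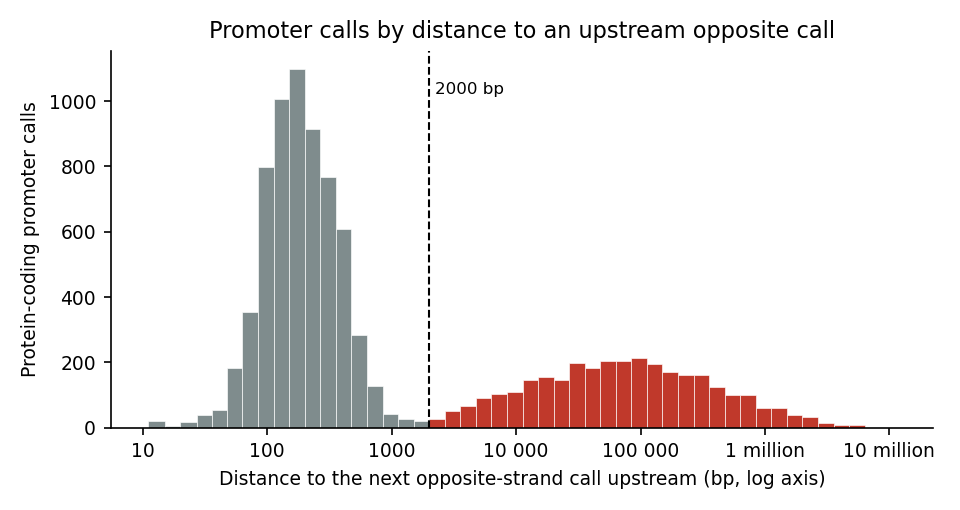
Number of protein-coding promoter calls (vertical axis) by distance to the next opposite-strand call upstream (bp, log axis), with distances under the lowest bin put in it. Grey bars are calls with a divergent call and red bars are the 3149 without (6 with no such call on the chromosome not drawn). The dashed line marks the limit of 2000 bp. The medians of the groups cut there are 179 and 73760 bp, and the bins widen with distance.

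Calls just past the limit were at H2BC10, a histone gene, at 2004 bp and ARRB2, a beta-arrestin gene, at 2040 bp. DNASE2 followed at 2048 bp, CCND1, the cyclin D1 gene, at 2075 bp and SNAPC2 at 2079 bp. At H2BC10 and DNASE2 the call nearer the start, at 4 and 13 bp, had an opposite call within the limit, at 1522 and 143 bp. Just within it lay TTF1 at 1978 bp, DOP1A and UBE3D, a head-to-head pair transcribed away from each other, at 1940 bp, TRIM67 at 1933 bp and RAB26 at 1926 bp. At the far end, IGFBP7, a secreted growth factor-binding protein, on chromosome 4 had its next upstream opposite call 10435356 bp away. ZNF519, a zinc finger gene on chromosome 18, followed at 6979589 bp and MAL at 6259959 bp. API5, ZNF717, CCDC59, FBXO33, CCDC102B, IL17RA and NUDT12 made up the rest of the 10 longest, from 4818937 to 5978520 bp. IGFBP7, ZNF519 and MAL each had 0 other calls within 50 kb, whereas CCDC59 and CCDC102B had a second promoter call with a divergent call 113 and 214 bp upstream of it.

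Most members sat at the start of a gene. The gene's strand was held by the promoter table for 2580 of the members (81.9%), and 2454 of those (95.1%) lay on the gene's strand. The other 126 (4.88%, interval 4.12 to 5.78%) lay at the far end of a gene that runs the other way, so they met the rule without being at the annotated start. RFC4, a clamp loader subunit, JUND and IER2, both immediate early genes, were such genes. The calls at their own starts, at 0, -1 and 116 bp, had divergent calls at 45, 211 and 279 bp. Among the comparison calls 172 of 5396 (3.19%, interval 2.75 to 3.69%) did so. Genes on chromosome 8 were not in the promoter table.

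On the gene's strand, members lay at a median of 1 bp downstream of the annotated gene end (quartiles -1 and 24 bp), and 46.0% were within 10 bp of it. The comparison calls had a median of 5 bp (quartiles -1 and 39 bp), and 44.0% were within 10 bp. Members were more often over 50 bp upstream, 10.6% (interval 9.48 to 11.9%) against 5.40% (4.82 to 6.04%). They were less often over 50 bp downstream, 15.1% (13.8 to 16.6%) against 21.9% (20.8 to 23.0%). Much of the upstream difference came from genes that also had a promoter call with a divergent call: 109 of their 201 members lay over 50 bp upstream, against 6.75% of the other 2253 (5.78 to 7.86%), an interval that overlaps that of the comparison calls. Over 50 bp downstream lay 15.98% of those 2253 (14.5 to 17.5%). Part of the downstream difference is fixed by the rule. A call downstream of another on its strand can have that call's divergent call within 2000 bp upstream, and then is no member. The size of this part was not tested. All intervals here cover counting over calls, which are not independent replicates.

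**Figure D2:**
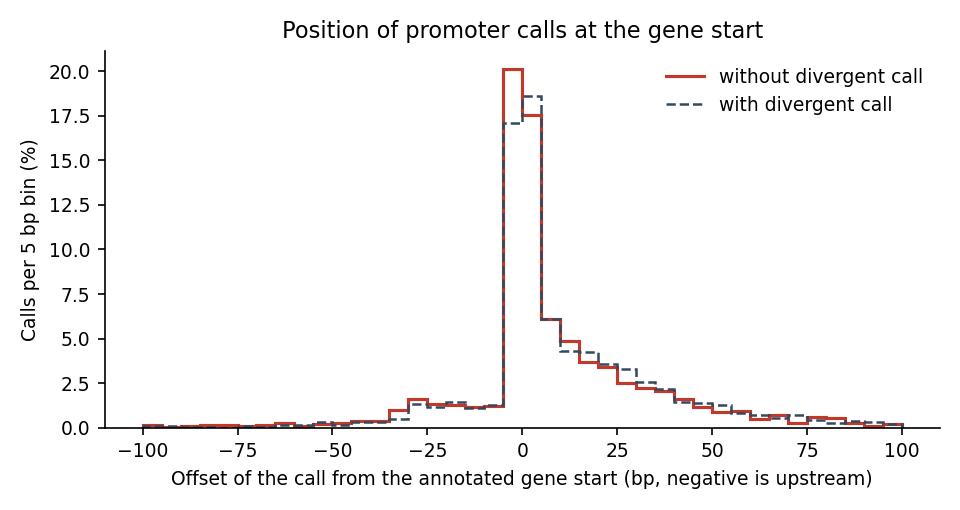
Percent of calls per 5 bp bin (vertical axis) by offset from the annotated gene start (bp, negative is upstream), for calls on the gene's strand. The 2454 calls without divergent call (solid red) and the 5224 with one (dashed) both peak in the 2 bins beside 0 bp; the former are highest from -5 to 0 bp (20.1%) and the latter from 0 to 5 bp (18.6%).

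The called base itself had a strong sequence signature. In 1845 members with enough flanking sequence, the called base was C in 52.6% and T in 3.09%, and the base after it was A in 52.7%. The CA step of the initiator element, with the start at A, thus began at the call in 36.7% of members (interval 34.5 to 38.9%) and in 32.1% of 3942 comparison calls (30.7 to 33.6%). Over both kinds of call, CA began at the call in 33.0% of forward and 34.1% of reverse calls, and 1 base earlier in only 1.70% and 1.02%. Offsets of -1 bp made up 18.0% of the 2454 members, against 9.33% at 0 bp. Positions are given as called, and whether they lie 1 base upstream of the start was not tested.

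By gene, 2688 of 8424 called genes (31.9%) had promoter calls without a divergent call only, 5456 had none of them, and 280 had both kinds. The 280 genes held 298 members (9.46%), whose layout is largely fixed by the choice of members and is given as a description. A member upstream of a second call on its strand has that call's divergent partner downstream of it, or else would not be a member. Of these 298, 48.0% lay over 200 bp upstream of the gene end and 75.8% (interval 70.7 to 80.4%) had an opposite-strand call 1 to 1000 bp downstream. In the other 2851 members the shares were 4.49% and 17.5% (16.2 to 19.0%). CDK9, the kinase of the elongation factor P-TEFb, shows the arrangement. A forward call lay 492 bp upstream of its annotated end with an opposite call 41 bp downstream of it, and a second forward call at 11 bp had a divergent call 462 bp upstream. MCM7, a subunit of the replicative helicase, and POLD1, a DNA polymerase delta subunit, had the same order of calls, with members 498 and 461 bp upstream. In these 3 genes the member lay upstream of the opposite call that paired with the second promoter call.

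Opposite-strand calls downstream of the member were not used by the rule itself, but in genes with both kinds of call they follow largely from it. They were present within 1000 bp in 23.1% of members (interval 21.6 to 24.6%) and 20.4% of comparison calls (19.5 to 21.5%), against 21.3% of all promoter calls. Leaving out the 280 genes with both kinds of call, an alternative chosen after the data were seen, removed 226 members with such a call out of 298 and so turned the order by its construction, with 17.5% of 2851 members against 1214 of 6069 comparison calls. Neither order is read as a difference. No other call lay within 2000 bp of 1902 members, or 60.4% of members and 19.97% of all promoter calls. The comparison calls had 0 of 6373 by the rule, since each has an opposite call that near. These shares are not read as a difference. A further call on the same strand within 1000 bp downstream was found for 19.1% of members (17.8 to 20.5%) and 15.9% of the others (15.0 to 16.8%), and within 1000 bp upstream for 8.89% and 20.7%. Both the downstream and the upstream same-strand shares follow in part from the rule, and neither pair is read as a difference. A divergent call of the upstream call can also lie within 2000 bp of the second call, which then is no member. Where there was an opposite call farther upstream, it was itself a protein-coding promoter call in 37.7% of 3143 members, another call inside a gene in 37.2% and between genes in 25.1%.

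Members were less often CpG-rich than the comparison calls. CpG content is given as the observed over expected number of CpG steps in the 300-base RefSeq window, from 250 bases before the annotated start. A window is called CpG-rich at a ratio of at least 0.6 and a G+C content of at least 50%. Of 2339 members on the gene's strand within 500 bp of a start in the table, 1997 (85.4%, interval 83.9 to 86.8%) were CpG-rich, against 4695 of 5036 comparison calls (93.2%, 92.5 to 93.9%) and 60.0% of all windows of protein-coding genes. Read the other way, 50.1% of calls at promoters that were not CpG-rich had no divergent call (interval 46.3 to 53.8%, n = 683), and 29.8% of those that were (28.8 to 30.9%, n = 6692). By bin the share was 82.9% of 35 calls at a ratio under 0.2, 69.7% of 109 at 0.2 to 0.4, 48.5% at 0.4 to 0.6, 36.5% at 0.6 to 0.8, 29.3% at 0.8 to 1 and 24.3% at 1 and over. The limit of 500 bp between call and table start was added after values had been seen, and the lowest bins depend on it. Without it the shares were 52.5% of 80 calls and 61.3% of 155 in the first pair of bins, and 46.9, 36.8, 29.5 and 24.7% in the others, so the lowest bin was no longer the highest.

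**Figure D3:**
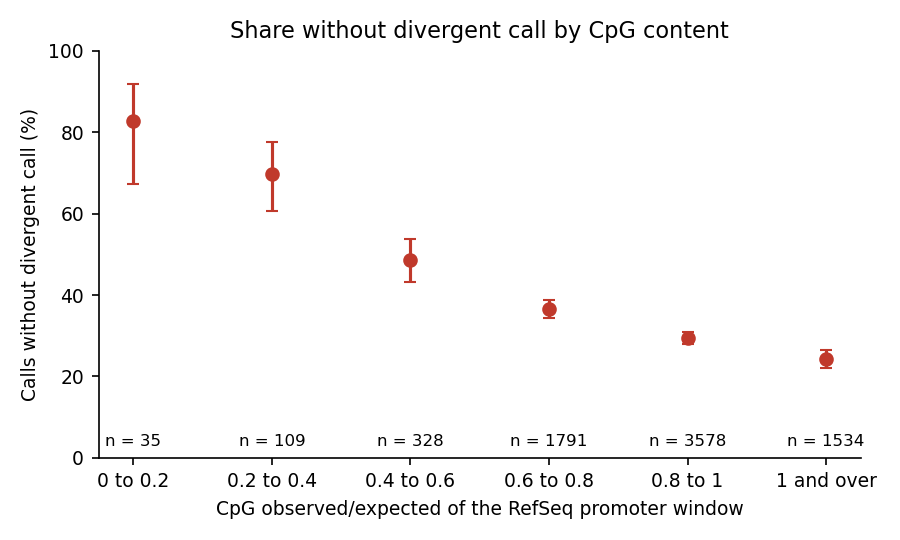
Percent of protein-coding promoter calls without a divergent call (vertical axis) by the CpG observed/expected ratio of the RefSeq window (horizontal axis), with Wilson 95% intervals and the number of calls in each bin. Each bin lies below the one before it, from 82.9% to 24.3%; without the limit of 500 bp between call and table start, added after values were seen, the first bin is 52.5% and lies below the second, at 61.3%.

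The difference lay in CpG steps more than in base composition. The median ratio was 0.844 in members (quartiles 0.731 and 0.951) and 0.895 in the others (0.791 and 0.9904), while the median G+C content was 65.7% in both. It was wider away from the start. From 250 to 151 bases before the start the median ratio was 0.707 in members and 0.817 in the others, and from 100 before to 50 after it 0.921 and 0.951. With calls within 10 bp of the start only, 86.4% of members and 93.8% of the others were CpG-rich. The distributions overlapped widely, and most members were ordinary CpG-rich promoters.

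TATAA was about as frequent at members as at the comparison calls. It started 40 to 20 bases before the annotated start in 82 of 2339 members (3.51%, interval 2.83 to 4.33%) and in 169 of 5036 others (3.36%, 2.89 to 3.89%), against 4.89% of all windows. Of the calls with TATAA 32.7% had no divergent call (interval 27.2 to 38.7%), and of those without it 31.7%. Histone genes made up 75 of the 251 calls with TATAA, and 22.7% of those had no divergent call. With histone genes left out the share was 36.9% (30.2 to 44.3%), and at TATAA promoters that were not CpG-rich it was 13 of 18 (49.1 to 87.5%), against 54.1% of all such calls that were not CpG-rich. With histone genes kept, it was 30 of 89 at these TATAA promoters (33.7%, 24.7 to 44.0%) and 312 of 594 at promoters with neither TATAA nor CpG richness (52.5%, 48.5 to 56.5%). Leaving out the histone genes was chosen after the values were seen.

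The TATAA members by the naming rule were led by AQP1, the water channel of the red cell, whose box began 30 bases before the start. TENT5C, a poly(A) polymerase gene, followed at 29 bases. AQP3, another water channel, had it at 32 bases, C5AR2, a complement receptor, at 28 and EEF2, the translation elongation factor, at 30. HSPA1A, the inducible heat shock protein, and P4HA1, a collagen prolyl hydroxylase, had it at 30 and 29 bases. H3C1, H4C13 and H4C6 are histone genes. Their CpG ratios ran from 0.317 at AQP1 to 1.36 at EEF2, so TATAA members were found at both ends of CpG content. HSPA1A and HSPA1B are near-identical copies, and so are many histone genes, so reads may have been shared between them.

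Of 9 motifs searched, those of ETS factors, the cyclic AMP response element and NRF1 were less frequent at members than at the comparison calls, with intervals that did not overlap. Each was searched on both strands of the 300-base window. CCGGAAG, a core of ETS factors, was in 19.8% of members (interval 18.2 to 21.4%), 27.4% of the others (26.2 to 28.7%) and 12.8% of all windows. TGACGT, part of the cyclic AMP response element, was in 11.3% (10.1 to 12.7%), 15.4% (14.5 to 16.5%) and 8.92%. CATGCGC, part of the site of NRF1, was in 7.78% (6.76 to 8.94%), 10.6% (9.74 to 11.4%) and 5.26%. These motifs hold a CG step, as do GGGCGG and CACGTG, and the part of CpG content in these shares was not tested. For CCAAT, bound by NF-Y, the shares were 37.7%, 40.2% and 34.6%. CACCC, bound by KLF factors, was in 62.7%, 61.5% and 63.4%, and GGGCGG, the GC box, in 76.9%, 74.4% and 56.3%. GATAA, the core of the GATA site, was in 13.1%, 12.3% and 18.6%, CACGTG in 10.6%, 11.99% and 8.34%, and AAGATGG, part of the YY1 site, in 9.36%, 9.95% and 6.05%. For the last 6 motifs the intervals of members and others overlapped. A match of letters is not a bound site.

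Genes of the red cell surface and membrane skeleton had the second highest share of members among the lists examined with at least 5 promoter calls, after the globin list. Of 25 promoter calls in this list, 17 (68.0%, interval 48.4 to 82.8%) had no divergent call, against 33.1% of all promoter calls. Of its 20 called genes 14 had such calls only and 6 none. SLC4A1, the band 3 anion exchanger, was called at 44268136 on chromosome 17 with the next upstream opposite call 13713 bp away. GYPC, glycophorin C, had none for 9976 bp. RHAG, the Rh-associated glycoprotein, had members at offsets of -1 and 468 bp, the first 9822 bp from the next opposite call. KEL, the Kell blood group protease, was 301080 bp, AQP1 317088 bp and XK, the partner of KEL, 112447 bp from theirs. Among skeleton genes, EPB41, protein 4.1, had 3243 bp and TMOD1, a tropomodulin, 262974 bp. CD44, a hyaluronan receptor, had 222792 bp, and BSG, basigin, was called at -462 and 31 bp, with 39240 and 39733 bp. ACKR1, the Duffy receptor, met the rule at both ends. Its strand was not in the promoter table, and these calls cannot both be at its start, yet both are counted. GYPE, at 97928 bp, has closely similar copies, so its call is uncertain. No test sets these shares apart from the background, since the lists were chosen with results known.

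The 6 membrane genes with a divergent call were SPTB, beta-spectrin, at 179 bp, CD47 at 152 bp, SLC2A1, the glucose transporter GLUT1, at 234 bp, STOM, stomatin, at 238 bp, ERMAP at 112 bp and RHCE at 157 bp. Where the promoter window was known, 17 calls of this list could be read, and 11 (64.7%) were CpG-rich. The 6 calls that were not CpG-rich were all members, and of the 11 that were, 5 were members. The CpG ratio was 0.0603 at KEL, 0.0772 at RHAG, 0.137 at GYPE, 0.317 at AQP1 and 0.572 at EPB41. It was 0.725 at GYPC and 0.845 at TMOD1, which are CpG-rich and were members as well. These counts rest on few calls.

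The globin list had 6 of 8 calls without divergent call (75%, interval 40.9 to 92.9%). HBB, adult beta-globin, was called at 5227071 on chromosome 11, 17852 bp from the next upstream opposite call, and an opposite call lay 122 bp downstream. A second reverse call in HBB at 309 bp had that call 187 bp upstream and was no member. HBD, delta-globin, had 10440 bp and a CpG ratio of 0.135. HBA2 and HBA1, the alpha-globin genes, had 6952 and 10756 bp; they are near-identical copies, so their calls are uncertain. HBQ1 met the rule at both ends, with a forward call at 17 bp, 2202 bp from its next upstream opposite call, and a reverse call at -266 bp. Its strand was not in the promoter table, and these calls cannot both be at its start, yet both are counted. HBM had a divergent call 60 bp upstream.

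Genes of haem synthesis and iron handling had few members. They numbered 4 of 26 calls (15.4%, interval 6.15 to 33.5%), an interval that reaches the background share. They included ALAS2, which starts haem synthesis in erythroid cells, with 130265 bp, CPOX, coproporphyrinogen oxidase, with 308369 bp, and the mitochondrial transporter ABCB10, with 67541 bp. FECH, the last enzyme of the pathway, had a divergent call at 134 bp, UROS at 288 bp, UROD at 951 bp and ALAD at 301 bp. TFRC, the transferrin receptor, had one at 178 bp and FTH1, ferritin heavy chain, at 150 bp. Of the 15 calls of this list with a known window 14 were CpG-rich, and ALAS2, with a ratio of 0.156, was the one that was not.

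Erythroid transcription factors were members in 4 of 15 calls (26.7%, interval 10.9 to 52.0%). NFE2, a subunit of the globin activator NF-E2, was called at -1 and 334 bp, with 3636 and 3971 bp to the next upstream opposite call. GATA2, which precedes GATA1 in the lineage, had 92225 bp and RUNX1 2230 bp. GATA1, KLF1, LMO2, MYB, BCL11A, ZBTB7A and KLF3 had divergent calls, at 185 bp for GATA1 and 112 bp for KLF1. The CpG ratios of GATA1 and KLF1, 0.204 and 0.248, were as low as those of several members. Further erythroid genes were members in 7 of 23 calls (30.4%), at CA1, carbonic anhydrase 1, with 2 calls, AHSP, the alpha-globin chaperone, TENT5C, TMCC2, FAM210B and SELENBP1. AHSP had 19515 bp, FAM210B, a mitochondrial protein of haem synthesis, 2293185 bp and CA1 85893 bp. Together the 5 erythroid lists had 38 members among 97 calls (39.2%, interval 30.1 to 49.1%), an interval that holds the 33.1% of all promoter calls.

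GATAA was also looked for at the place of a TATA box after the sequences of RHAG, ALAS2 and KEL had been seen. It began on either strand 40 to 20 bases before the call in 3 of 17 erythroid members with enough sequence, which are these 3 genes, at 30, 29 and 28 bases. It did so in 1 of 29 erythroid calls with a divergent call, in 27 of 1845 members of all kinds (1.46%, interval 1.01 to 2.12%) and in 35 of 3942 comparison calls (0.888%, 0.639 to 1.23%). The numbers in the erythroid lists are too small to separate.

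Genes used by all dividing cells were mostly below or near the background. Ribosomal protein genes, cell cycle and replication genes and the transcription machinery had 44 members among 178 calls (24.7%, interval 19.0 to 31.5%). Cell cycle and replication genes had 10 of 52 (19.2%, 10.8 to 31.9%), with CDC6, the licensing factor, 68685 bp, MCM6 108767 bp, RFC5 826257 bp, E2F1 45605 bp and CCND2, cyclin D2, 400398 bp from the next upstream opposite call. Ribosomal protein genes had 20 of 87 (22.99%, 15.4 to 32.9%), among them RPL11 with 160572 bp and RPL29 with 158625 bp. The transcription machinery had 14 of 39 (35.9%, 22.7 to 51.6%), and these included the polymerase II subunits POLR2C, POLR2D, POLR2F and POLR2G, with 15295, 28351, 104361 and 7419 bp. Transfer RNA synthetase genes had 7 of 38 (18.4%, 9.22 to 33.4%), proteasome genes 11 of 43, mitochondrial ribosomal genes 23 of 78, genes of oxidative phosphorylation 21 of 72, RAB genes 9 of 33 and Mediator and Integrator genes 15 of 44. The counts of these lists include calls at the far end of a gene, as at RFC4, MRPL34, NDUFA7, NDUFB10 and RAB5B.

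**Figure D4:**
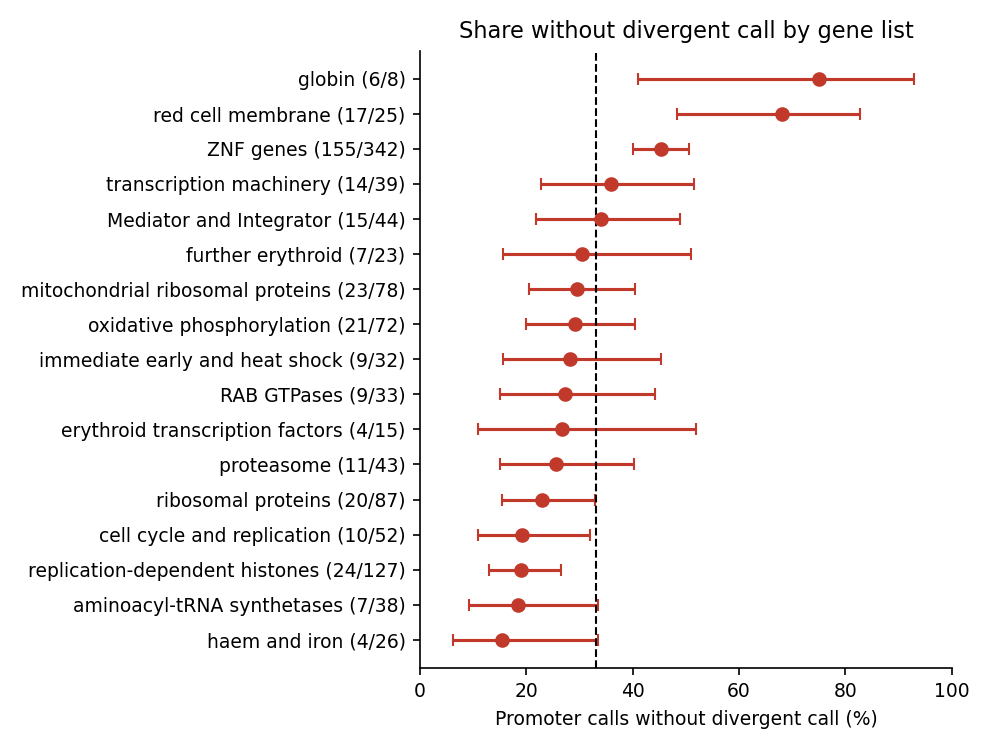
Percent of promoter calls without a divergent call (horizontal axis) in each gene list with at least 5 promoter calls, with Wilson 95% intervals; the counts are members over promoter calls, and the dashed line is the 33.1% of all promoter calls. The globin, red cell membrane and ZNF lists lie above the line with their whole interval, and the cell cycle, histone and ribosomal lists below it.

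Immediate early and heat shock genes, induced within minutes by growth signals or stress, had 9 of 32 calls as members (28.1%, interval 15.6 to 45.4%). Those at IER2 and JUND lay at the far end of the gene and are counted here. FOS and FOSB, subunits of the AP-1 factor, were both called at -1 bp and had 19828 and 44096 bp to the next upstream opposite call, and JUN, their partner, had 32468 bp. FOS and FOSB carried TATAA and were CpG-rich. IER3 had 169799 bp and HSPA1A 8586 bp. The phosphatase gene DUSP2 had both kinds of call, a member at -1 bp and a call at 261 bp with an opposite call 60 bp upstream of it.

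Replication-dependent histone genes, which lie in dense clusters, were mostly not CpG-rich by the measure used and had few members. Only 6 of their 98 calls with a known window were CpG-rich, and 24 of 127 calls (18.9%, interval 13.0 to 26.6%) were members. The measure also needs a G+C content of at least 50%, and several named histone windows missed only that limit. H4C12 had a ratio of 1.02 at 49% G+C, H4C11 0.938 at 49.7% and H3C1 0.752 at 40%. H2BC6, at 0.555, and H4C6, at 0.464, missed the ratio as well. The part of each limit in the count was not tested. Calls within 50 kb of the 24 members numbered from 5, at H3C13, to 71, with a median of 51, against a median of 2 for all members and 4 for the comparison calls. The part of this call density in the count was not tested. With histone genes left out, 54.1% of calls that were not CpG-rich had no divergent call (50.1 to 58.1%, n = 591).

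ZNF genes, most of which encode repressors of the zinc finger family, had 155 members among 342 calls (45.3%, interval 40.1 to 50.6%). Of 302 called genes 134 had such calls only and 18 had both kinds. Their promoters were CpG-rich in 87.5% of 280 calls. Among the CpG-rich ones 39.6% were members (33.7 to 45.8%, n = 245), and among the rest 27 of 35 (77.1%, 61.0 to 87.9%). ZNF100, called at -9 bp, had 1307611 bp to the next upstream opposite call and a CpG ratio of 0.452, and ZNF107 had 103052 bp and 0.321. ZNF160 had 230326 bp with a ratio of 0.850, so the list held CpG-rich members too. No HOX gene was a member, with 2 calls in the list, and olfactory receptor genes had 0 promoter calls.

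Chromosome X had the highest share of members. There 112 of 233 promoter calls had no divergent call (48.1%, interval 41.7 to 54.5%), against 32.7% of those on chromosomes 1 to 22 (31.7 to 33.7%), where the shares ran from 25.4% on chromosome 6 to 38.6% on chromosome 19. The CpG-rich share of calls was 88.9% on X and 90.8% on the others. Among CpG-rich promoters alone, 45.6% of calls on X (38.2 to 53.1%, n = 169) and 29.4% on the others (28.3 to 30.6%, n = 6523) had no divergent call. Members on X included ALAS2, XK, MED14, a Mediator subunit, PSMD10, a proteasome chaperone, and RAB9A, whereas GATA1 had a divergent call. MED14 had both kinds of call, with a second promoter call at 311 bp that had a divergent call 175 bp upstream. Chromosome X was singled out after its value had been seen.

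**Figure D5:**
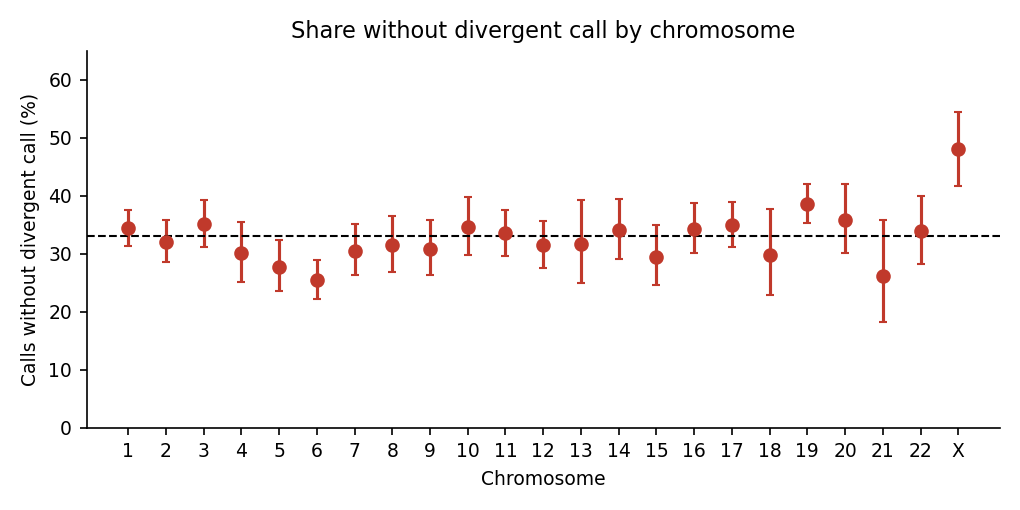
Percent of protein-coding promoter calls without a divergent call (vertical axis) on each chromosome, with Wilson 95% intervals; the dashed line is the 33.1% of all promoter calls. Chromosome X, at 48.1%, lies above the other chromosomes, which range from 25.4 to 38.6%.

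Some members had an annotated start on the other strand in the place where no call was made. Outside chromosome 8, 473 of 3036 members (15.6%, interval 14.3 to 16.9%) had a RefSeq start of an oppositely oriented gene 0 to 2000 bp upstream, against 2524 of 6127 comparison calls (41.2%, 39.97 to 42.4%). Of the nearest such genes, 238 were protein-coding and 235 long non-coding, and 62 were named as divergent transcripts. ZNRD2-DT began 45 bp, YAE1-DT 57 bp and ZNF426-DT 67 bp from the call of the gene they are named for, with no call of their own strand within 2000 bp upstream of it; these were named as the nearest.

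Gene length and the number of calls on the gene's strand were close between the groups. The median gene length was 27688 bp for members and 26197 bp for the comparison calls. A gene with 2 or more calls on its own strand was found for 32.6% of members (interval 30.8 to 34.5%) and 35.4% of the others (34.1 to 36.7%). The members on a known gene strand with the most such calls were NFIX, a nuclear factor I gene, with 11, NFATC1 and RUNX1 with 8, GLUL, glutamine synthetase, and MAD1L1 with 7, and CFLAR, HLCS, MGA, RNH1 and SOS1 with 6. GLUL, HLCS, MGA and RNH1 also had a promoter call on the same strand with a divergent call. CA1 and its 54 calls are not in this ranking, since its strand was not in the table.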

How the data were processed

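PRO-seq start sites were taken from 2 deposited lists, 1 per strand, for the series as a whole. Per the file headers, they were called with TSScall on 1 sorted and de-duplicated HUDEP-2 alignment; its read minimum is not given in the sources used here. Per the submitters' processing notes the build was hg38, and deepTools 3.5.4, SAMtools 1.17, Picard and BWA 0.7.16a were used. The deposited score is 0 in all 28283 calls, so depth per call is unknown. The end coordinate of each 1-base interval was used as its position. Gene ends, strands and promoter windows came from RefSeq tables of GRCh38.p14, whose primary chromosomes are those of hg38; 15812 of 19974 protein-coding genes had a window, and the nearest start within 500 bp of the call was used, a limit added after values were seen. A call at the ends of 2 genes was given to the gene on its strand, then the nearest. Shares have Wilson 95% intervals; calls are not replicates, so no p-value is given. Members, lists and the naming rule were chosen with earlier results of these data known. Genes named are members of the 5 erythroid lists, up to 10 of each other list, the 10 longest distances, 5 calls on either side of 2000 bp, 10 TATAA members and the 10 with most own-strand calls where the strand was known; others were chosen after their values were seen, and a few are not reported here. Windows of 100 and 1000 bp, upstream limits of 1000 and 5000 bp, merging, strand and 1 call per gene were tried as alternatives. The scripts were tested on simulated data. The work used matplotlib 3.10.9, scipy 1.17.1, pandas 2.3.3, numpy 2.4.6 and Python 3.11.15.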

Additional observations from a re-analysis of the deposited data

Results flagged for a closer look

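The mitochondrial genome carried 94 calls outside the chromosomes described; they were singled out as a signal in data that the comparisons do not use, and were not tested.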

How the results depend on the processing

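Of 54 values under alternatives, 41 stayed within the interval of the reported value and 13 did not. The share of promoter calls without divergent call moved from 33.1% to 31.4% with an upstream limit of 5000 bp, 38.9% with calls within 500 bp merged, 32.0% with calls on the gene's strand only and 32.0% without genes that had both kinds of call. The CpG-rich share of members moved from 85.4% to 69.6% with a minimum ratio of 0.75, where the others had 80.8%, and it was below that of the others in all 10 alternatives, 1 of which, calls on the gene's strand only, is the reported value by construction, as it also is for the TATA box share. TATAA was in 8.42% of members when sought anywhere in the 250 bases before the start, against 6.43% of the others. The housekeeping share moved from 24.7% to 33.3% with merged calls, where the share of all promoter calls was 38.9%. The share of members with an opposite call downstream moved from 23.1% to 18.5% with a gene window of 100 bp, 29.1% with 1000 bp and 30.8% with merged calls. With merged calls the others had 13.5%, the widest gap among the alternatives. Merging keeps the most upstream call of each run, and its part in this gap was not tested. The share of members was 20.1% with 1 call per gene, 27.1% within 2000 bp downstream and 17.5% without genes that had both kinds of call. Only the last lay below the others, by its construction, since it removes members whose downstream call follows from the rule. The causes of the other moves were not tested. Leaving out those genes, seeking TATAA before the call and taking the nearest table start at any distance were chosen after seeing the data; with the last, 84.2% of members and 91.9% of the others were CpG-rich. No paired analysis was possible because the lists have no column per library. The number of reads behind a call is unknown, so an antisense start under the caller's limit cannot be told from none.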
